A study of Mus musculus with 4 samples.

Results

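Dermal fibroblasts lying close to cells that carried *Shh* transcripts were compared with fibroblasts lying farther away in the same tissue sections. A fibroblast was a segmented cell with at least 3 transcripts of *Pdgfra*, *Col1a1* and *Lum* together, at least 10 transcripts in all, and none of *Krt5* or *Shh*. A Shh cell was any cell with at least 3 *Shh* transcripts. Fibroblasts whose centre was within 50 µm of a Shh cell were called near and those over 100 µm away were called far. By this rule 3632 of the 50308 fibroblasts were near, 39661 were far, and those in between entered neither class. The 4 sections held 219841 cells, and all sections of the series held 101417 fibroblasts among 515791 cells.

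Sonic hedgehog, the product of *Shh*, is a ligand secreted by the epithelium of the growing hair follicle. It binds its receptor Patched on neighbouring cells, relieves Smoothened from inhibition and activates Gli transcription factors, which in turn raise *Ptch1*, the gene of that receptor. In the dermis its best known recipients are the dermal papilla, a cluster of specialized fibroblasts enclosed by the follicle bulb, and the connective tissue sheath around it.

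The study placed the transcription factor *Pitx1* under a tetracycline-responsive element in mice whose *Krt5* promoter drives the reverse transactivator, so that doxycycline turns it on in keratinocytes. The transgene was switched on through the diet for 6 weeks, starting while follicles were at rest (PITX1+), and mice whose food held no drug were the Control. Xenium, which counts single transcripts of a fixed panel in place in a tissue section, was run with 328 genes on unwounded dorsal skin of males and of females, on dorsal skin 4 days after wounding and on buccal mucosa. Each slide carried several sections under a single set of labels, and the unwounded slides carried both conditions. The 4 sections analysed here are those matched to PITX1+ skin, called male sections 1 and 2 and female sections 1 and 2. They were matched by their number of cells, which the slide labels do not state.

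*Pitx1* stood at 1250 and 977 CPM, counts scaled to 1000000 panel transcripts of a class, in cells with at least 3 *Krt5* transcripts of male sections 1 and 2, against 31.2 CPM in the male Control section. In female sections 1 and 2 it stood at 36.5 and 101 CPM, against 49.3 and 49.5 CPM in the female Control sections, so transgene RNA did not set female section 1 apart from Control skin. The study's legend counts as many PITX1+ mice as there were sections, but the labels do not tie a section to an animal, so p-values measure the spread between these sections. The slides held 6288712 to 10483436 transcripts of the panel. Values of the 4 sections are given in the order male section 1, male section 2, female section 1, female section 2.

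The near fibroblasts numbered 726, 709, 138 and 2059, which was 10.2%, 8.30%, 1.30% and 8.58% of the fibroblasts of each section. Their summed transcripts came to 71539, 82727, 6080 and 128766, against 320943 to 1120475 for the far fibroblasts. Female section 1 was thus the shallowest and female section 2 held the most near cells. The 3 Control sections of unwounded skin held no Shh cell, with 14, 187 and 76 cells carrying any *Shh* transcript, and the 7 buccal sections held none either. No near fibroblast could therefore be defined in Control skin or mucosa.

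Shh cells numbered 570, 528, 122 and 1130 and formed compact groups. Joined within 50 µm, they made 48, 32, 10 and 56 groups, the largest with 62, 50, 65 and 113 cells. Groups of a single cell numbered 11, 5, 4 and 10.

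**Figure D1:**
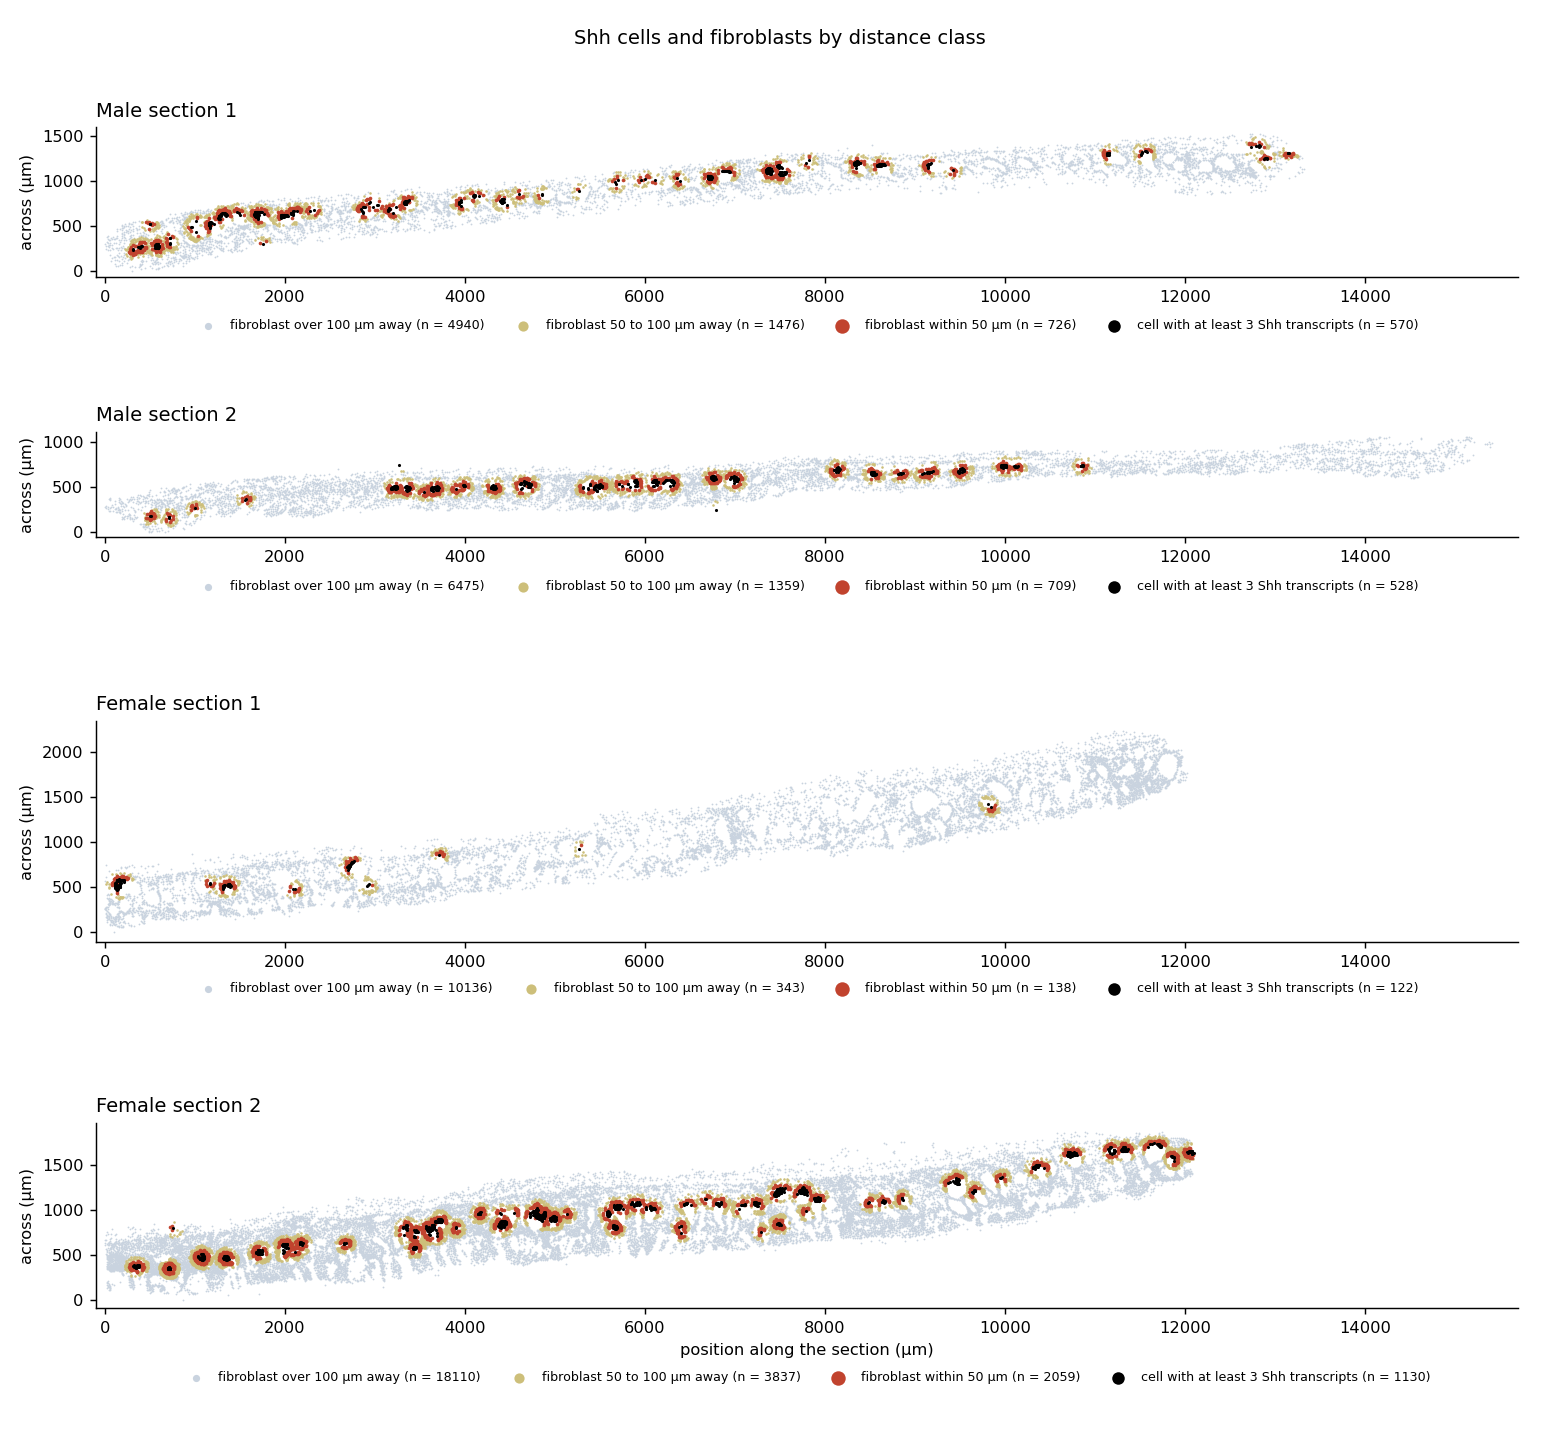
Positions of Shh cells (black) and of near (red), intermediate (tan) and far (pale blue) fibroblasts in the 4 sections, with distance along and across each section in µm. The Shh cells fell into 48, 32, 10 and 56 separate groups, single cells included, of which 13, 16, 3 and 42 had at least 20 near fibroblasts. Female section 1 has the fewest, with 138 near fibroblasts beside 10136 far ones.

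The label of the cells was first set against their markers. The rule genes *Col1a1*, the main fibrillar collagen of dermis, and *Pdgfra*, the growth factor receptor that marks dermal fibroblasts, were present in both classes. *Col1a1* stood at 79132, 85776, 114309 and 151391 CPM in near fibroblasts and at 102454, 114934, 146543 and 185451 CPM in far fibroblasts. *Pdgfra* stood at 12273, 11653, 18421 and 22358 CPM near and at 14404, 7508, 19148 and 12818 CPM far. *Lum*, a small leucine-rich proteoglycan, stood at 7618, 9670, 822 and 971 CPM near and at 9575, 11868, 1598 and 2167 CPM far. The cells were chosen by their counts of these genes, of *Krt5* and of *Shh* in neighbouring cells, so these values are a description.

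Several measures of the cells were compared over the sections, of which transcripts and genes per cell were bounded by the rule's own minimum of 10 transcripts. The number of cells within 50 µm was also tied to the rule, by which every near fibroblast has a Shh cell within that distance. Near fibroblasts had 84.7 ± 7.04 cells within 50 µm (mean ± SD, n = 4 sections) against 51.7 ± 15.3 for far fibroblasts, and a cell area of 158 ± 31.7 against 244 ± 74.3 µm². They held 80.5 ± 33.1 against 67.1 ± 24.0 transcripts per cell and 35.6 ± 9.25 against 28.8 ± 6.19 different genes. Each of these differences had the same direction in 4 of 4 sections (exact two-sided sign-flip permutation p = 0.125 each, the smallest that 4 sections allow, adjusted p = 0.156 over 5 measures). For transcripts per cell this held in 2 of 4 sections among cells with at least 20 transcripts (exact permutation p = 0.5) and with Shh cells taken from 1 transcript (exact permutation p = 0.75). Nucleus area was 24.4 ± 3.65 against 24.0 ± 3.97 µm² and larger near in 3 of 4 sections (exact permutation p = 0.375).

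Transcripts of other cell types were present in both classes, and the sums of several marker lists differed between them. The hair follicle keratinocyte markers, without *Krt5*, which was at 0 by the rule, summed to 9757, 7241, 44243 and 30559 CPM near against 6768, 4324, 22694 and 17806 CPM far. The interfollicular keratinocyte markers summed to 1174, 568, 4441 and 2703 CPM near against 5995, 2779, 17532 and 14458 CPM far, but without the genes that were called to 797, 447, 1974 and 1794 CPM near against 748, 485, 3602 and 3624 CPM far. Macrophage markers summed to 19901 to 45318 CPM near and 46379 to 72650 CPM far. Those of smooth muscle and pericytes summed to 10608 to 17669 CPM near and 18037 to 80923 CPM far, but without *Des*, the one of its 6 genes that was called, to 9529 to 14789 CPM near and 9935 to 14468 CPM far, higher near in 2 of 4 sections. The share of the differences below that comes from transcripts of adjacent cells was not tested. The gene tests were run again on transcripts over the nucleus, and also without cells holding any hair follicle marker, where those markers themselves could not be tested.

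Of 314 panel genes tested, 29 were higher in near fibroblasts (9.24% of those tested) and 22 were lower (7.01%), 51 in all (16.2%), by edgeR's quasi-likelihood test on counts summed per section and class with the section as a block, at an adjusted p under 0.05. The 29 were near-higher in 4 of 4 sections with 1 exception, *Ptprz1*, and 17 of them did not overlap between the classes. All 22 lower genes were lower in 4 of 4 sections and 8 did not overlap, beside 42 non-overlapping genes among all tested (13.4%). The median log2 fold change over all genes tested was -0.10. Scaled by library size in place of TMM, the calls were 46 higher and 21 lower, with the median at -0.004. With 1 section left out in the usual order, 22, 18, 22 and 14 of the 29 and 16, 16, 20 and 14 of the 22 stayed called, and the number of higher genes fell to 14 without female section 2. Those called whichever section was left out were 14 higher genes (among them *Ptch1*, *Wif1*, *Wnt5a*, *Sostdc1*, *Dlx3*, *Fgfr2*, *Igfbp2*, *Igfbp4*, *Lrrc15*, *Cenpf*, *Hist1h1b*, *Top2a* and *Uhrf1*) and 12 lower ones (*Des*, *Gpx3*, *Pi16*, *Angptl1*, *Igfbp5*, *Mmp3*, *Flg*, *Flg2*, *Hrnr*, *Krt1*, *Krt77* and *Lor*).

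The hedgehog receptor gene *Ptch1* rose near Shh cells. *Ptch1*, which encodes the Patched receptor and is itself a direct target of the pathway, stood at 7926, 6975, 24178 and 28043 CPM in near fibroblasts. In far fibroblasts it stood at 2748, 1319, 1475 and 3411 CPM. Every near value lay above every far value, and the female sections were the highest. The log2 fold change was 2.65 (SE 0.43, edgeR adjusted p = 0.00649).

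Shh cells themselves held 6476, 5747, 18379 and 14026 CPM of *Ptch1*, below near fibroblasts in 4 of 4 sections. From transcripts over the nucleus alone the log2 fold change was 2.44 (edgeR adjusted p = 0.000175). Without cells holding a hair follicle marker it was 2.61 (edgeR adjusted p = 4.2e-06).

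**Figure D2:**
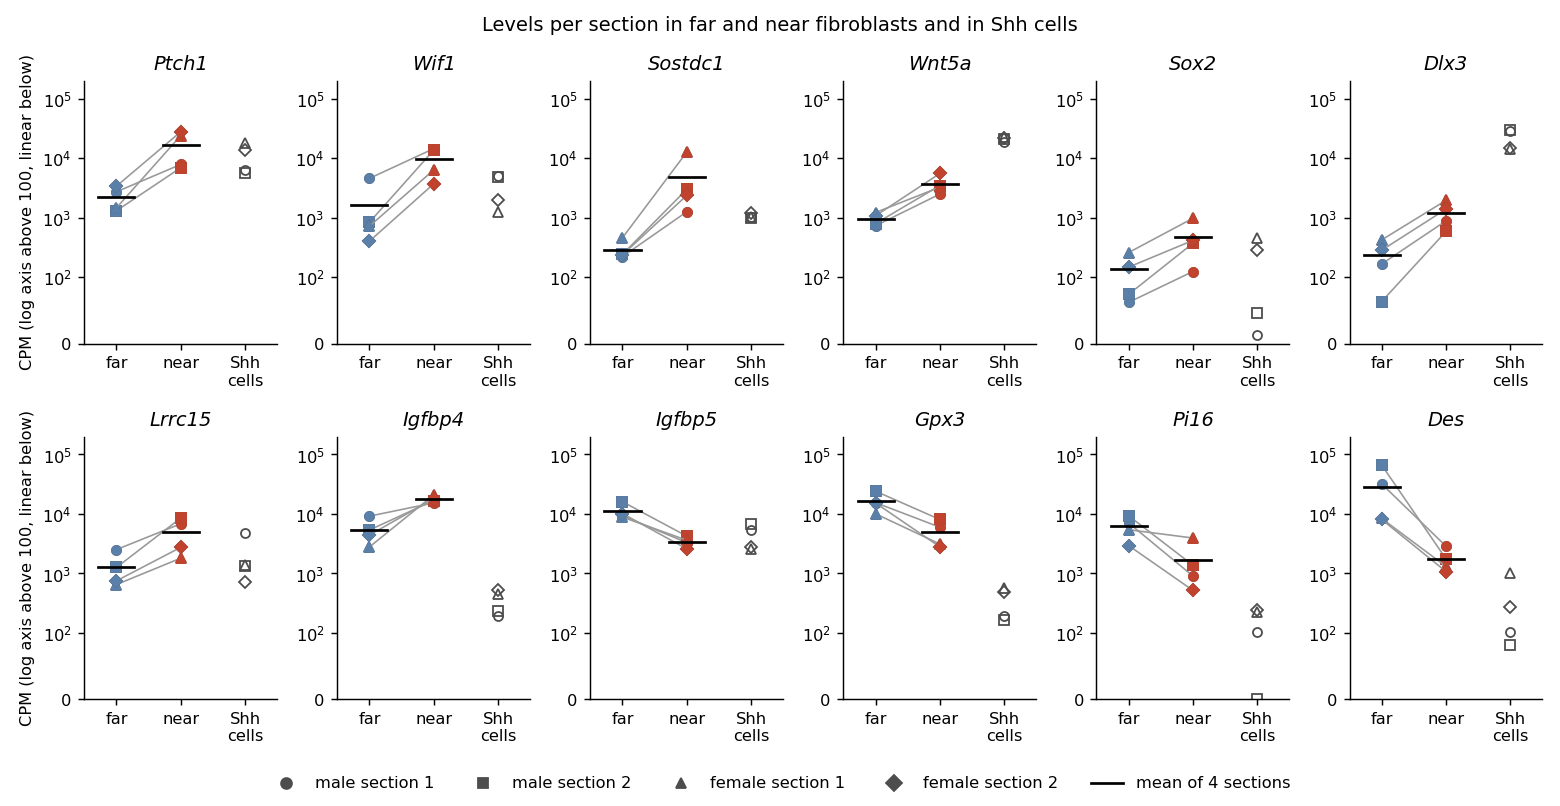
CPM of 12 genes (log axis above 100, linear below) in far fibroblasts (blue), near fibroblasts (red) and Shh cells (open symbols), with a symbol per section, lines joining far and near of the same section, and black bars for the mean of 4 sections. *Ptch1*, *Sostdc1*, *Wnt5a* and *Dlx3* have every near value above every far value, and *Des* and *Gpx3* every near value below.

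Of the 10 genes listed for the dermal papilla, 3 rose (*Wif1*, *Wnt5a* and *Sox2*) and none fell. A positive log2 fold change was found in 9 of them, with a median of 0.91 over the list. Of all 314 genes tested, 9.24% were higher, 7.01% were lower and 144 had a positive log2 fold change, with a median of -0.10. The sum of the 10 listed genes ranged over 35418 to 42434 CPM near and 15130 to 22099 CPM far. *Wif1*, a secreted inhibitor that binds Wnt ligands and is a marker of the papilla, stood at 14635, 13841, 6414 and 3751 CPM near and at 4624, 846, 727 and 407 CPM far. It was higher near in every section. The classes overlapped, as the lowest near value, 3751 CPM, lay below the far value of male section 1, 4624 CPM. The log2 fold change was 2.93 (SE 0.40, edgeR adjusted p = 0.00321).

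*Wnt5a*, a Wnt ligand that signals mostly outside the β-catenin branch, stood at 2516, 3506, 3289 and 5592 CPM near and at 738, 804, 1235 and 1085 CPM far. The classes did not overlap (log2 fold change 1.85, SE 0.24, edgeR adjusted p = 0.00264). Shh cells held 18621 to 23174 CPM of it. *Sox2*, a transcription factor of the papilla of some hair types, was sparse, with 9, 31, 6 and 54 near transcripts. It stood at 126, 375, 987 and 419 CPM near and at 62.3, 74.4, 262 and 149 CPM far. It was higher near in 4 of 4 sections with overlapping classes (log2 fold change 1.61, SE 0.37, edgeR adjusted p = 0.0244). The call was lost from transcripts over the nucleus (log2 fold change 1.20, edgeR adjusted p = 0.0745) and without cells holding a hair follicle marker (1.29, edgeR adjusted p = 0.0697).

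The other dermal papilla genes did not pass the test, although the list's count of 3 became 6 with library size in place of TMM and 5 with DESeq2. Of the 3, *Wif1* alone stayed called with near from 25 to 50 µm, and likewise with a minimum of 1 *Shh* transcript. *Sox2* lost its call in 10 of 21 alternatives. *Bmp4*, the bone morphogenetic protein of the papilla, stood at 1188, 2043, 1645 and 885 CPM near and at 860, 1124, 330.5 and 186 CPM far (log2 fold change 1.29, SE 0.42, edgeR adjusted p = 0.069). *Ncam1*, an adhesion molecule of the papilla, stood at 1831, 2623, 2632 and 3603 CPM near and at 1137, 1615, 1058 and 1316 CPM far (0.92, SE 0.26, edgeR adjusted p = 0.0506). Both were higher near in 4 of 4 sections. *Ncam1* passed in 12 of 21 alternatives, among them transcripts over the nucleus (0.87, edgeR adjusted p = 0.0224) and cells without a hair follicle marker (1.12, edgeR adjusted p = 0.00746), and *Bmp4* passed in 5 of 21. The retinoic acid binding protein gene *Crabp1* differed in direction by slide, with 475, 1378, 329 and 621 CPM near and 118, 234, 914 and 729 CPM far. *Dkk2*, *Lbh*, *Igfbp3* and *Ptn* had log2 fold changes of 0.59, 0.53, 0.30 and -0.33.

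*Sostdc1*, a secreted antagonist of bone morphogenetic proteins that also modulates Wnt signalling, had the largest rise of all genes tested. It stood at 1272, 3034, 12829 and 2399.7 CPM near and at 224, 245, 465 and 240.1 CPM far. No near value fell within the far range, and female section 1, with the fewest near cells, was the highest. There *Sostdc1* stood at 38542 CPM in the 31 near fibroblasts around a single group of Shh cells. It stood at 9182 and 4035 CPM around the other groups of that section with at least 20 near fibroblasts. The log2 fold change over all sections was 3.47 (SE 0.41, edgeR adjusted p = 0.00207). With near fibroblasts taken from 25 to 50 µm only, both *Sostdc1* (1.27, edgeR adjusted p = 0.109) and *Wnt5a* (0.82, edgeR adjusted p = 0.105) lost their call. Near fibroblasts held more than the Shh cells, which stood at 1000 to 1211 CPM.

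The lists of these pathways are read against the 9.24% of all genes that were higher and the 7.01% that were lower. Of 15 Wnt pathway genes 3 rose, the third being *Lgr6*, a receptor for R-spondins (log2 fold change 1.41), and the median was 0.34. Of 13 genes of BMP and TGF-β signalling 2 rose and 1 fell. Beside *Sostdc1* the riser was *Id3*, a target of BMP signalling that inhibits helix-loop-helix factors (0.92), and the one that fell was *Tgfbi*, a TGF-β-induced matrix protein (-1.29). Of 15 growth factors and receptors 1 rose, the fibroblast growth factor receptor *Fgfr2* (1.43), with a median of 0.06. The call of *Id3* was lost in 10 of 21 alternatives, among them transcripts over the nucleus (0.65, edgeR adjusted p = 0.0609) and cells without a hair follicle marker (0.53, edgeR adjusted p = 0.178).

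*Igfbp4*, a binding protein that holds insulin-like growth factors away from their receptor, stood at 15362, 16851, 20888 and 18180.3 CPM near and at 9204, 5381, 2792 and 4425 CPM far. The 4 near values lay close together while the far values spread widely, without overlap (log2 fold change 1.73, SE 0.37, edgeR adjusted p = 0.0182). Shh cells held only 192 to 525 CPM. *Igfbp2* also rose (1.32) and *Igfbp5* fell (-1.79), with 3299, 4243, 3618 and 2594 CPM near and 9344, 16074, 8864 and 10163 CPM far. The 10 genes of the insulin-like growth factor list had a median of 0.15.

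*Lrrc15*, a membrane protein with leucine-rich repeats found on matrix-producing fibroblasts, stood at 6849, 8534, 1809 and 2749 CPM near and at 2521, 1262, 652 and 751 CPM far (log2 fold change 1.82, SE 0.27, edgeR adjusted p = 0.00469). It rose in both sexes from levels that were higher in males. Among 16 integrins and adhesion genes 1 rose, *Cdh11*, the cadherin of mesenchymal cells (1.27). Of 8 ephrins and Eph receptors 2 rose, *Efnb1* (1.53) and its partner family's receptor *Epha4* (0.87). The call of *Epha4* was lost in 12 of 21 alternatives, among them transcripts over the nucleus (0.73, edgeR adjusted p = 0.0717) and cells without a hair follicle marker (0.49, edgeR adjusted p = 0.275).

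Cell cycle genes made up 7 of the 29 higher genes. Of 10 measured, 7 were called higher, 10 had a positive log2 fold change and the median was 1.27. Of all 314 genes tested, 9.24% were called higher and 144 had a positive log2 fold change, with a median of -0.10. *Top2a*, the topoisomerase of dividing cells, stood at 4068, 2877, 2303 and 3813 CPM near and at 1318, 910.0, 1246 and 1158 CPM far, without overlap (log2 fold change 1.42, edgeR adjusted p = 0.00584). *Cenpf*, a kinetochore protein, and *Uhrf1*, which maintains DNA methylation through replication, rose by 1.59 and 1.58. Shh cells held more of all 3 genes than near fibroblasts on average, 7949 CPM for *Top2a*. Without cells holding a hair follicle marker, of the 7 only *Cenpf*, *Hist1h1b*, *Prc1* and *Top2a* stayed called. With near from 25 to 50 µm, only *Cenpf* and *Uhrf1* did.

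The follicle transcription factors *Dlx3* and *Lhx2* and the basal keratin gene *Krt15* were the 3 called of 14 tested hair follicle keratinocyte markers. Over all genes tested, 9.24% were called higher. *Dlx3*, a homeobox gene of the hair matrix, stood at 895, 592, 1974 and 1406 CPM near and at 168, 63.5, 427 and 286 CPM far (log2 fold change 2.44, edgeR adjusted p = 0.00207). It stood at 28476, 29898, 14612 and 14872 CPM in Shh cells, far above near fibroblasts. Over all 29 higher genes, the mean level in Shh cells exceeded that in near fibroblasts for 19 (65.5%), against 51.6% of all genes tested. The 10 with at least as much in near fibroblasts were *Cdh11*, *Hpgd*, *Igfbp2*, *Igfbp4*, *Lrrc15*, *Ptch1*, *Ptprz1*, *Sostdc1*, *Sox2* and *Wif1*. From transcripts over the nucleus 20 of the 29 stayed called, *Dlx3* among them but not *Lhx2* (1.62, edgeR adjusted p = 0.103) or *Krt15*, and without cells holding a hair follicle marker 19 did, where *Dlx3*, *Lhx2* and *Krt15* were removed by construction. *Lhx2* lost its call in 8 of 20 alternatives, each section left out in turn among them.

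Several genes of other fibroblasts fell near the Shh cells. Of 10 listed adventitial and reticular fibroblast genes 3 fell, beside 7.01% of all genes tested, none rose, and the median was -0.67. The only one with a positive log2 fold change was *Penk*, described below. *Gpx3*, a secreted glutathione peroxidase, stood at 5997, 8087, 3125 and 2804 CPM near and at 15514, 24181, 10091 and 15324 CPM far (log2 fold change -1.88, SE 0.22, edgeR adjusted p = 0.00207). *Pi16*, a peptidase inhibitor that marks adventitial fibroblasts, stood at 909, 1378, 3947 and 520.3 CPM near and at 7073, 9326, 5439 and 2948 CPM far (-2.37, SE 0.45, edgeR adjusted p = 0.0114). *Gpx3* did not overlap between classes, *Pi16* did through female section 1. *Angptl1*, a secreted angiopoietin-like protein, fell by 2.02 on the log2 scale.

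*Des*, which encodes the muscle intermediate filament desmin, stood at 2879.6, 1765, 1316 and 1079 CPM near and at 32049, 66455, 8418 and 8102 CPM far. The far values were the higher in every section, most of all on the male slide (log2 fold change -3.77, SE 0.48, edgeR adjusted p = 0.00264). It was the only one of 5 contractile and sheath genes that was called. Some matrix and inflammatory genes fell as well. Of 11 collagens and matrix genes, *Tnc* (-1.37) and *Fn1* (-0.66), both glycoproteins of provisional matrix, fell. Both lost their call with library size in place of TMM, and over 21 alternatives *Tnc* lost it in 10 and *Fn1* in 7. Of 16 tested inflammatory fibroblast genes, the serum amyloid gene *Saa3* (-2.48) and the chemokine gene *Cxcl13* (-1.43) fell, and 15 of the 16 had a negative log2 fold change, as did 170 of all 314 genes, of which 7.01% were called lower. *Cxcl13* lost its call in 9 of 21 alternatives, among them transcripts over the nucleus (-1.29, edgeR adjusted p = 0.0557). *Mmp3*, the matrix metalloproteinase stromelysin, fell by 2.09 and the immediate early gene *Jun* by 0.83 on the log2 scale. *Jun* lost its call in 8 of 21 alternatives, among them cells without a hair follicle marker (-0.68, edgeR adjusted p = 0.0957).

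The remaining lower genes, apart from *Anxa3*, were markers of other cell types. Of 11 tested interfollicular keratinocyte markers 6 were lower, beside 7.01% of all genes tested, with a median log2 fold change of -3.09. They were led by the cornified envelope genes *Flg2* (-4.39), *Hrnr* (-4.03) and *Lor* (-4.02). *Lor* had 4, 2, 2 and 16 transcripts in near fibroblasts. Of 5 sebaceous genes *Cidea* and *Krt79* were lower (-2.21 and -1.52), while 2 had a positive log2 fold change and the list's sum was higher near in 3 of 4 sections. *Cd74* of the macrophage list was lower (-1.05). None of 7 retinoid genes was called by edgeR in either direction, while 115 of all 314 genes had an unadjusted p under 0.05.

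Near and far fibroblasts also differed in how close any keratinocyte lay. Nearly all near fibroblasts (100%, 100%, 100% and 98.3%) lay within 50 µm of a cell with at least 3 *Krt5* transcripts, against 65.2%, 45.9%, 57.9% and 44.9% of far fibroblasts. Near fibroblasts were therefore set against the 20203 far fibroblasts that lay within 50 µm of such *Krt5* cells. Here 16 of 310 genes were higher (5.16%) and 26 were lower (8.39%), or 17 and 18 scaled by library size. The near samples are those of the comparison above. Without female section 2 the counts fell to 2 and 11, and without male section 2 to 5 and 16.

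*Ptch1* was still higher. It stood at 4009, 2258, 1921 and 6239 CPM in fibroblasts beside other *Krt5* cells, below every near value, and the log2 fold change was 1.96 (SE 0.41, edgeR adjusted p = 0.0192). *Sostdc1* at 220, 299, 599 and 385 CPM there (3.11, edgeR adjusted p = 0.001), *Wnt5a* at 906, 1383, 1737 and 1951 CPM (1.22, edgeR adjusted p = 0.00841) and *Sox2* (1.59, edgeR adjusted p = 0.0275) were higher near Shh cells too. *Wif1* stood at 7515, 2334, 937 and 647 CPM beside other *Krt5* cells (2.08, edgeR adjusted p = 0.00841). Each of these was higher near in 4 of 4 sections. Of these genes, only *Sostdc1* kept its call with any 1 section left out.

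For several genes the size of the difference, or only its call, changed with the reference. *Gpx3* stood at 4342, 7234, 2541 and 1826 CPM beside other *Krt5* cells, no higher than near Shh cells, and its log2 fold change was 0.27 in place of -1.88. *Des* went from -3.77 to -0.41, *Pi16* from -2.37 to -0.72 and *Igfbp2* from 1.32 to 0.28, none of them called against this reference. Among the rising genes *Fgfr2* (0.80), *Lgr6* (0.63), *Cdh11* (0.57), *Epha4* (0.56) and *Lhx2* (1.25) also lost their call. So did *Saa3* (-2.08, beside -2.48 against all far fibroblasts), *Cxcl13* (-0.87), *Fn1* (-0.30) and *Jun* (-0.33) among the falling ones. *Efnb1* (1.19), *Lrrc15* (0.87) and *Id3* (0.85) kept theirs. *Igfbp4* stayed at 1.33 (edgeR adjusted p = 0.0502). *Igfbp5* (-1.30), *Tgfbi* (-1.32), *Tnc* (-1.60) and *Mmp3* (-1.95) were lower near Shh cells against both references. None of them kept its call against this reference whichever section was left out. Of the 10 cell cycle genes 5 were called higher here, and of the hair follicle markers *Dlx3* alone (1.83). The interfollicular markers were lower still, 8 of 11 called with a median of -4.22. The 10 adventitial and reticular fibroblast genes had a median of 0.14 here, with *Angptl1* alone called lower (-1.48).

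**Figure D3:**
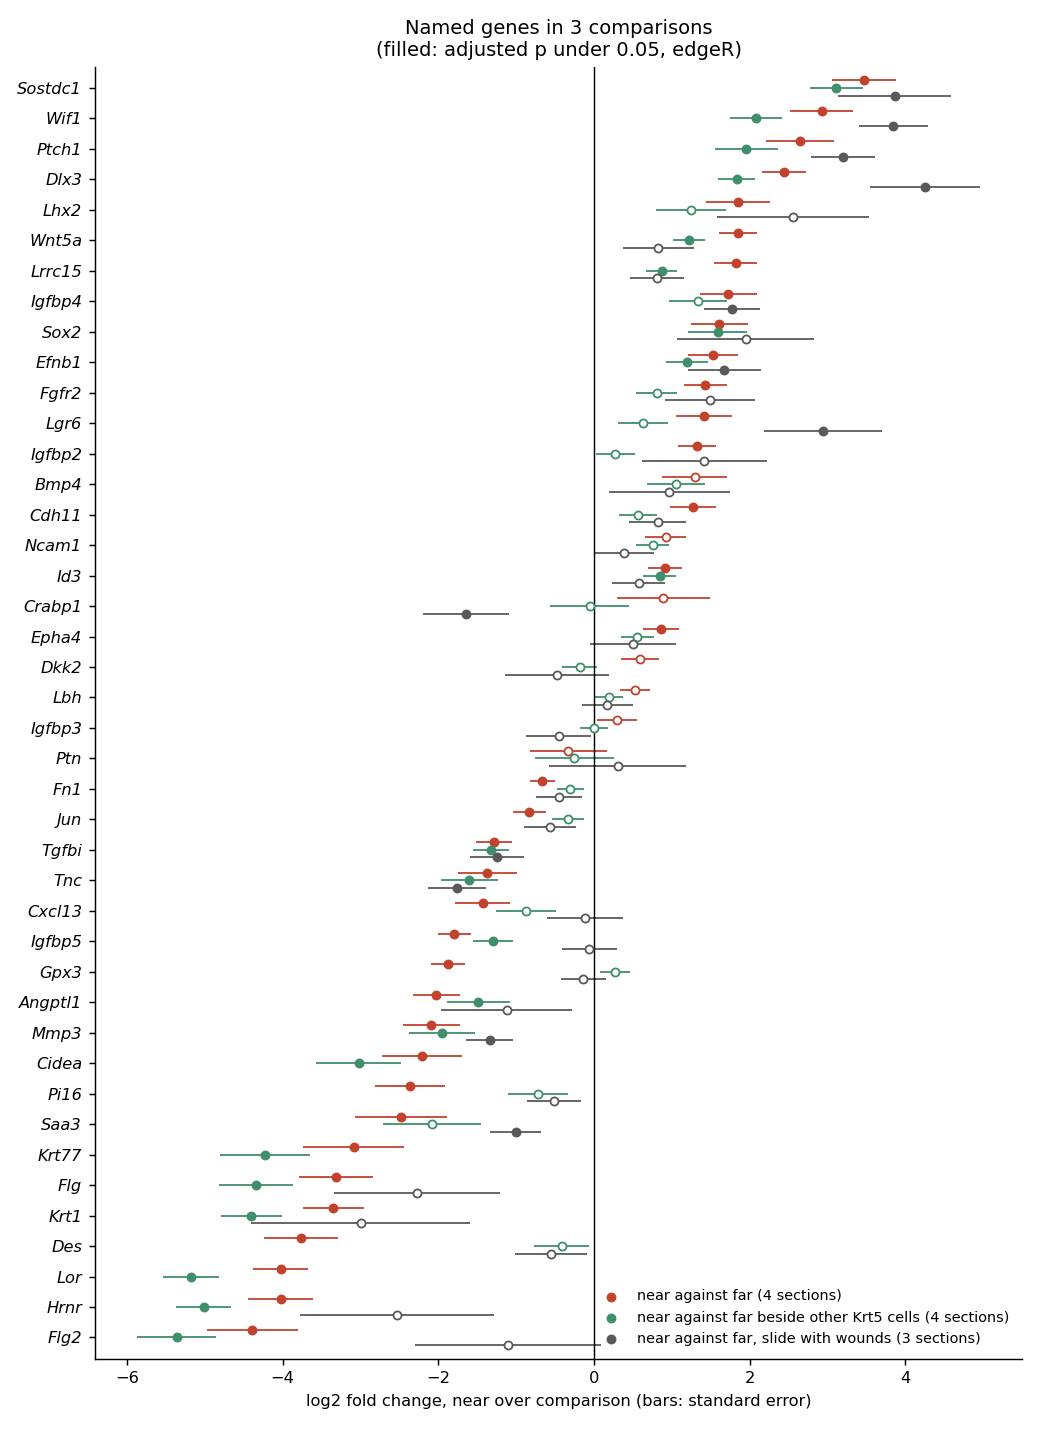
Log2 fold change of the named genes in near fibroblasts against far fibroblasts (red, 4 sections), against far fibroblasts beside other *Krt5* cells (green, 4 sections) and against far fibroblasts of the slide with wounds (grey, 3 sections), with bars of 1 standard error and filled symbols for an edgeR adjusted p under 0.05. *Ptch1* is at 2.65, 1.96 and 3.20, while *Gpx3* is at -1.88 against all far fibroblasts and at 0.27 beside other *Krt5* cells; a grey point is absent where a gene was not tested or had no near transcript.

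Levels were next followed in rings around the Shh cells, as a description, since the rings divide the same cells. *Ptch1* fell steadily, from 27752 ± 15845 CPM within 25 µm (mean ± SD, n = 4 sections) to 13087 ± 9031 from 25 to 50 µm, 5899 from 50 to 100 µm, 2869 from 100 to 200 µm and 2023 from 200 to 400 µm. It fell from ring to ring over the first 4 rings in 4 of 4 sections, as did *Igfbp4*, *Dlx3*, *Igfbp2* and *Jag1*, which encodes a Notch ligand and rose by 1.16 on the log2 scale. *Igfbp4* went from 21752 CPM through 16075 and 9856 to 6201 CPM. *Igfbp2* was higher again farther out. Its mean was 3255 CPM from 100 to 200 µm, 3917 CPM from 200 to 400 µm and 7130 ± 8310 CPM over 400 µm.

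Other genes were highest in the first ring and dropped sharply after it. *Wif1* fell from 25032 ± 17310 to 5104 ± 2603 CPM between the first and the second ring, *Wnt5a* from 9747 ± 4369 to 1974 ± 873 CPM and *Sostdc1* from 13909 ± 11060 to 1326 ± 1570 CPM. The ratio of the first to the second ring was 10.5 for *Sostdc1*, 4.94 for *Wnt5a* and 4.90 for *Wif1*, against 2.12 for *Ptch1* and 1.35 for *Igfbp4*. Of the 7 dermal papilla genes that had not passed the test over the whole near class, the ratio was 19.6 for *Crabp1*, 5.06 for *Bmp4*, 2.68 for *Dkk2*, 2.31 for *Ncam1* and 1.58 for *Igfbp3*, each higher in the first ring in 4 of 4 sections. It was 1.33 for *Ptn*, which was lower there in 3 of 4, and 1.09 for *Lbh*, higher in 2 of 4. It was 1.03 for *Penk*, which encodes proenkephalin and was lower in the first ring in 3 of 4 sections. *Hpgd*, a prostaglandin-degrading enzyme, ran the other way at 0.514, lower in the first ring in 4 of 4 sections. The first ring held 194, 137, 45 and 418 fibroblasts.

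*Gpx3* and *Pi16* formed the mirror image. *Gpx3* rose from 2628 CPM within 25 µm through 5805 to 13777 and 15915 CPM, and *Pi16* from 704 through 2181 and 4341 to 5607 CPM. *Igfbp5* was lowest in the second ring, with 4881, 3031, 5600 and 8995 CPM.

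The cutoffs at 50 and 100 µm did not fall at a step in these profiles. *Ptch1* stood at 4988, 3965, 13644 and 17447 CPM from 40 to 50 µm and at 3665, 3426, 11755 and 12654 CPM from 50 to 60 µm. It stood at 3078, 1776, 4961 and 7652 CPM from 90 to 100 µm and at 2601, 1595, 3427 and 7296 CPM from 100 to 110 µm.

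**Figure D4:**
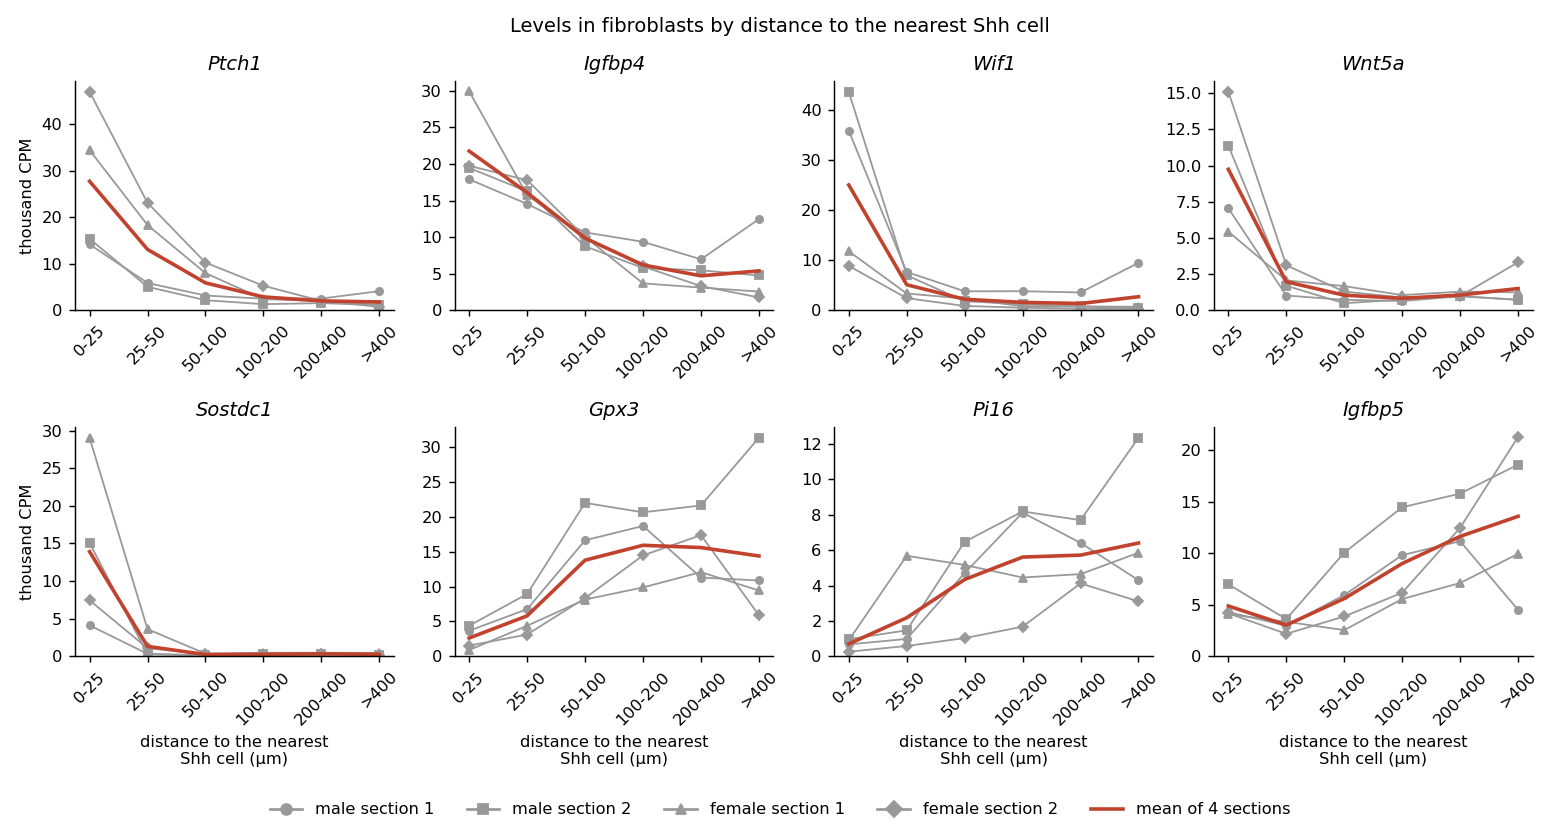
Mean level in units of 1000 CPM of 8 genes in fibroblasts by distance in µm to the nearest Shh cell, with grey lines for the 4 sections and a red line for their mean. *Ptch1* and *Igfbp4* decline over several rings, *Wif1*, *Wnt5a* and *Sostdc1* drop after the first 25 µm, and *Gpx3*, *Pi16* and *Igfbp5* are higher far away.

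The same gradient was seen in the share of fibroblasts with a transcript after every cell had been thinned to 30 transcripts, so that depth was equal. *Ptch1* was found in 33.2%, 31.3%, 62.2% and 66.8% of fibroblasts within 25 µm, in 15.9%, 13.7%, 36.5% and 43.8% from 25 to 50 µm, and in 8.04%, 3.46%, 4.37% and 8.29% of far fibroblasts. *Wif1* was found in 54.0%, 53.1%, 24.3% and 20.8% within 25 µm and in 1.34% to 11.9% of far fibroblasts. Female sections thus had more *Ptch1*-bearing and fewer *Wif1*-bearing cells beside Shh cells than male ones. *Sostdc1* was found in 9.09% to 27.0% within 25 µm, 1.01% to 7.94% from 25 to 50 µm and 0.541% to 1.43% of far fibroblasts. Thinning left out shallower cells and kept 683, 667, 100 and 1815 near fibroblasts. Without thinning *Ptch1* was found in 40.1%, 38.8%, 46.4% and 61.2% of near and in 12.4%, 8.99%, 5.15% and 12.9% of far fibroblasts.

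Separate groups of Shh cells were compared as a further description. Of the groups, 74 had at least 20 near fibroblasts, 13, 16, 3 and 42 by section. *Ptch1* around a group exceeded the far level of its section in 73 of 74 groups (98.6%), *Wif1* in 72, *Igfbp4* in 70, *Wnt5a* in 69 and *Lrrc15* in 68. *Sostdc1* and *Dlx3* did so in 56 each (75.7%) and *Sox2* in 31 (41.9%). For *Sox2* these were the groups with any transcript of it, since every group below the far level had none. Most of the groups below the far level for *Sostdc1* or *Dlx3* likewise held no transcript of that gene, so these counts largely separate groups with and without a transcript. *Des* and *Pi16* were below the far level in 74 of 74 groups and *Gpx3* in 72.

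The groups differed widely in level. Around single groups *Ptch1* ranged from 7968 to 46295 CPM in female section 2 (median 27289), from 2494 to 16205 CPM in male section 1 (median 8121) and from 2531 to 12646 CPM in male section 2 (median 6867). The highest group of either male section was below the median of the female one. Groups of the same section share their tissue and are not replicates.

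**Figure D5:**
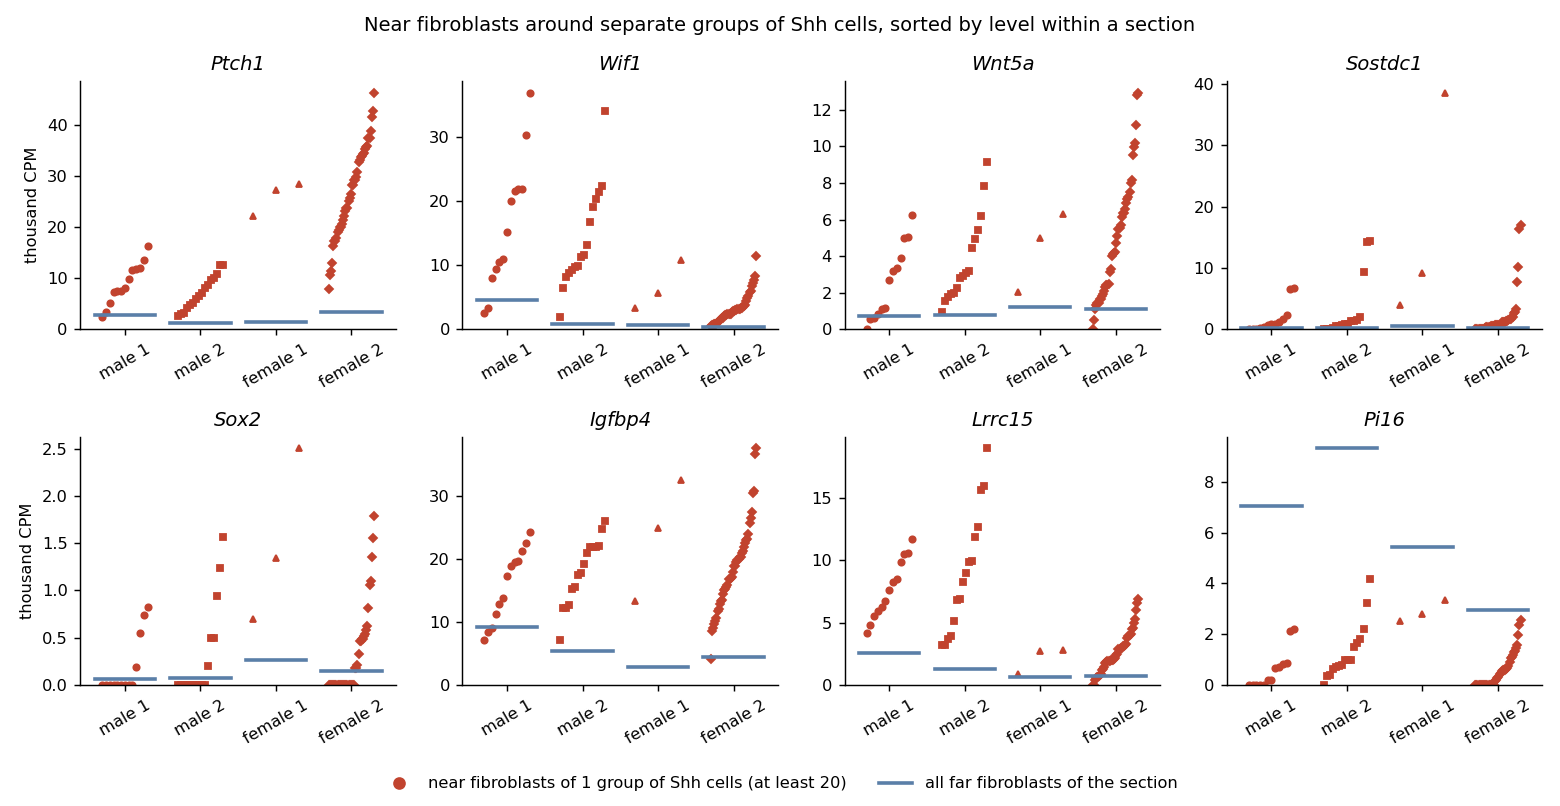
Level in units of 1000 CPM of 8 genes in near fibroblasts around each of 74 groups of Shh cells with at least 20 of them (red symbols, sorted by level within each section) and in all far fibroblasts of the section (blue lines). *Ptch1* lies above the line in 73 groups and *Pi16* below it in 74, while *Sostdc1* and *Sox2* are high around a few groups.

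The near minus far difference was set against the slide, which is also the sex. Of 314 genes the difference was called in 11 (3.5%), with 3 more positive in males (0.955%) and 8 more positive in females (2.55%), by an interaction term in edgeR, or 4 and 3 scaled by library size. *Ptch1* was among them, with a mean log2 ratio of near to far of 1.97 in males and 3.54 in females (interaction -1.75, edgeR adjusted p = 0.0495). *Crabp1* was higher near in males and lower near in females, with mean log2 ratios of 2.28 and -0.69 (interaction 2.62, edgeR adjusted p = 0.0493). *Penk*, which missed the threshold over all sections (log2 fold change 1.55, edgeR adjusted p = 0.0506), stood at 7814, 5113, 14145 and 21388 CPM near and at 5091, 2887, 2191 and 3822 CPM far, and differed by slide as well. No gene was called once male section 1, female section 1 or female section 2 was left out by edgeR (57, 22 and 41 genes at an unadjusted p under 0.05), and 11 and 12 were without male section 2. Sex, slide and the difference in *Pitx1* level between the slides cannot be told apart.

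The slide of male skin at 4 days after wounding gave the same measure in sections that the rule had not used. Its labels name Control and PITX1+ skin together, and near and far were compared within each of its 3 sections whatever their condition. They held 24, 35 and 13 Shh cells with 124, 187 and 97 near and 4677, 7953 and 20105 far fibroblasts. The median distance of a fibroblast to the nearest Shh cell was 4228, 612 and 1003 µm. It was 146, 180, 608 and 175 µm in the unwounded PITX1+ sections, so the far classes are not alike. Whether near and far there also differed in distance from the wound was not tested. In section 3 only 46.4% of near fibroblasts lay within 50 µm of a *Krt5* cell, against 100% in the other two. Of 292 genes 15 were higher (5.14%) and 25 lower (8.56%) near Shh cells, or 16 and 12 scaled by library size, which moved the median log2 fold change of all genes from -0.17 to 0.02. Without section 2 none was called by edgeR (50 at an unadjusted p under 0.05), and without section 1 there were 9 and 13.

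*Ptch1* stood at 2666, 2727 and 8439 CPM near and at 364, 334 and 446 CPM far on that slide (log2 fold change 3.20, SE 0.41, edgeR adjusted p = 7.2e-06). The classes did not overlap, as was the case for 93 of 292 genes (31.8%). *Wif1* stood at 5263, 9240 and 5495 CPM near and at 105, 1009 and 485 CPM far (3.85, edgeR adjusted p = 3.3e-06). *Sostdc1* rested on section 1, with 93, 11 and 3 near transcripts (3.86, edgeR adjusted p = 0.000809).

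All 29 genes called higher on the unwounded slides were tested on the slide with wounds and had the same sign there. Of these 11 were called on both, which is 37.9% of the 29 and 73.3% of the 15. Among them, beside *Ptch1*, *Wif1* and *Sostdc1*, were *Dlx3*, *Efnb1*, *Hpgd*, *Igfbp4*, *Krt15*, *Lgr6* and *Ptprz1*. Of the 22 lower genes 21 were tested, 21 had the same sign and 5 were called on both (22.7% of the 22 and 20% of the 25). They were *Mmp3*, *Saa3*, *Tgfbi*, *Tnc* and *Lor*, the last with no transcript in near fibroblasts of any of the 3 sections. With far limited to 100 to 300 µm, only 2 genes were called higher and 1 lower on that slide, of 227 tested.

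Some differences did not carry over as calls. *Wnt5a* was at 0.83 (edgeR adjusted p = 0.245) and *Igfbp5* at -0.06, and 0 of 10 cell cycle genes were called. *Gpx3* was at -0.13, *Des* at -0.56 and *Pi16* at -0.51, none of them called. *Crabp1* was lower near Shh cells there, with 2529, 2282 and 98.1 CPM near and 3252, 3929 and 5450.5 CPM far (-1.64, edgeR adjusted p = 0.049). *Penk* was called higher (2.20, edgeR adjusted p = 0.00168), with 2871, 1725 and 2747 CPM near and 438, 691 and 306 CPM far. The adventitial and reticular fibroblast list, which holds *Penk*, had a median of 0.29 there, and none of its genes was called lower. Among the 25 lower genes were *Il1b*, which encodes interleukin-1β (-2.20), and *Arg1*, the arginase of wound macrophages (-4.58), both chosen after their values were seen.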

How the data were processed

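The authors deposited, for each Xenium slide, a table of decoded transcripts and a table of cells. The deposited cell table gives counts of transcripts per cell without normalization. The deposited transcript table gives a quality score, a position in µm and a mark for lying over the nucleus, which are other quantities. The software version and the settings of segmentation are not given in the sources used here. Outlines were not used.

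Decoded transcripts below a quality score of 20 were dropped, and each cell then held its deposited number in 100% of cases. Of all panel transcripts 98.1% to 99.1% lay in cells. Sections were separated by joining cells within 100 µm (200 µm on the slide with wounds), and their condition followed from numbers of cells in the paper's data, not from the labels. Slides shared 1 to 7 cell identifiers per pair, and each cell was kept within its slide.

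Counts were summed per section and class. The 5 genes of the rule stayed in the totals and were not tested. Genes were filtered (filterByExpr), scaled by TMM and tested with edgeR 4.0.16 in R 4.3.3 (glmQLFit and glmQLFTest, section as block, Benjamini-Hochberg adjustment, threshold 0.05). Near and far of a section are the same piece of tissue, which is where the pairing comes from. CPM are counts scaled to 1000000 transcripts of the class. The edgeR test gives no standard error. The SE printed is the absolute log2 fold change divided by the square root of the test's F statistic. The fits were also run on simulated sums, with the same dispersion for every gene and the same change in every section. That setting does not cover changes that differ between sections or slides. Cell measures were compared by an exact sign-flip permutation over sections. DESeq2 1.42.0 was an alternative, beside other scalings, filters, distances and *Shh* minimums and leaving out each section. The male slide alone and the female slide alone were added after seeing the data.

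Named genes were *Ptch1*, the dermal papilla list, the genes called and of 1 sign in 4 of 4 sections with the 10 highest and the 10 lowest log2 fold changes, and the called genes of any list with 5 or fewer. *Jag1*, *Hpgd*, *Penk*, *Top2a*, *Cenpf*, *Uhrf1*, *Hist1h1b* and *Prc1* were named after their values were seen. The comparisons, members and gene lists were chosen with earlier results of these data known. Counting intervals are not given, since the section is the unit, and the panel covers selected genes, so CPM are shares of the panel. 1 gene that the rule names is not reported here.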

Additional observations from a re-analysis of the deposited data

Results flagged for a closer look

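In 4 sections the log2 ratio of near to far CPM was examined for a section far from the others in 48 genes, where chance marks about 1 gene in 20. *Dlx3* and *Cxcl13* were marked, with a gap to the nearest section of 0.847 and 0.9343 of the whole range. The section that stood apart was male section 2 for *Dlx3*. For *Cxcl13* it was female section 1, which had no near transcript.

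The near minus far difference was unlike between the slides for *Ptch1* (male minus female -1.753 on the log2 scale) and for *Crabp1* (2.615), by an interaction term in edgeR. Both calls were lost when male section 1, female section 1 or female section 2 was left out.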

How the results depend on the processing

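In near against far fibroblasts the log2 fold change of *Ptch1* stayed positive in all 21 alternatives (1.79 to 3.32) and lost its call in 2 of them, without the section as a replicate block (edgeR adjusted p = 0.065) and on the male slide only. Genes higher and lower numbered 29 and 22, and 46 higher with library size, 38 lower with DESeq2 (43 higher, the 29 among them), 0 and 0 with no replicate block (47 genes at an unadjusted p under 0.05 by edgeR), 0 and 0 on the male slide only (93 at an unadjusted p under 0.05), 49 and 85 on the female slide only, 63 lower with near within 25 µm, 13 higher with near from 25 to 50 µm, and 14 to 23 higher and 17 to 26 lower with 1 section left out. Against fibroblasts beside other *Krt5* cells, genes higher numbered 28 with DESeq2, and higher and lower 1 and 5 with no replicate block, 6 and 14 without cells holding a hair follicle marker, 27 and 58 with near within 25 µm, 10 higher with near from 25 to 50 µm, 2 and 9 with a minimum of 1 *Shh* transcript, and 2 to 13 and 11 to 25 with 1 section left out (5 and 16 without male section 2). On the slide with wounds they numbered 7 higher without cells holding a hair follicle marker, 7 and 4 with near from 25 to 50 µm, 2 and 1 with far from 100 to 300 µm, 0 and 0 with a minimum of 1 *Shh* transcript (102 at an unadjusted p under 0.05 by edgeR), 12 lower with library size, 4 lower with no replicate block, 9 lower with transcripts of any quality score, and 0 to 15 and 0 to 17 with 1 section left out. Near within 25 µm could not be fitted on that slide, for lack of sections with 50 near cells. By slide they numbered 1 and 4 with no filter on genes, 3 lower with library size, and 0 to 11 and 0 to 12 with 1 section left out, where the lone section of a slide is assumed to vary like the others.

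Values that changed sign were *Crabp1* (-0.56 on the female slide only, -1.17 with near from 25 to 50 µm), *Igfbp3* (-0.0915 on the male slide only, -0.0112 from 25 to 50 µm), *Ptn* (0.23 without male section 2, 0.29 on the female slide only), *Cidea* and *Tnc* (0.0388 and 0.349 with 1 *Shh* transcript), *Tnc* beside other *Krt5* cells (0.0366 with 1 *Shh* transcript) and the difference in nucleus area (-0.122 µm² with at least 20 transcripts per cell, -0.476 without cells holding a hair follicle marker, -0.587 within 25 µm). The cause was not tested. Depth limits female section 1 most, with 6080 near transcripts.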
